A study of Mus musculus with 15 samples.

Results

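The 10 transcripts described here encode the cyclins and kinases that drive the cell cycle, namely *Ccna2*, *Ccnb1*, *Ccnd1*, *Ccnd2*, *Ccnd3*, *Ccne1*, *Ccne2*, *Cdk1*, *Cdk2* and *Cdk4*. They were chosen by gene name, and *Ccnd2* also because its level was known to vary between clones of these data, so the values of *Ccnd2* are given as a description. It was fitted with all other transcripts and is counted among the 10, but nothing is read from its own test. Each gene is represented by 1 transcript among the 21727 transcripts counted, and 10 of 10 passed the filter on low counts, as did 10085 transcripts in all. The samples are E14Tg2a.4 mouse embryonic stem cells (mESCs) grown in serum with leukemia inhibitory factor and treated with cycloheximide, which stalls elongating ribosomes, before lysis. In *Rps27-FLAG* mESCs (labelled eS27-FLAG, clones 2b12, 2c3 and 2c4) a 3xFLAG tag was inserted homozygously before the stop codon of endogenous *Rps27*. *Rps27l-FLAG* mESCs (labelled eS27L-FLAG, clones 4a2, 4a3 and 4b7) carry the tag at its paralog *Rps27l*, and the WT control (5a1, 5a2 and 5a3) is untagged and passage-matched. Ribosome-protected fragments (RPFs), the pieces of mRNA that a ribosome shields from RNase, were sequenced for the whole ribosome population of each clone (total RPFs, 9 libraries) and for ribosomes pulled down with anti-FLAG from each tagged clone (IP RPFs, 6 libraries). Replicate numbers 1, 2 and 3 also mark the pools in which barcoded RPFs were prepared together, called batches here. Each biological replicate is a single clone, and for a tagged clone its lysate gave both IP and total RPFs.

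D-type cyclins (*Ccnd1*, *Ccnd2*, *Ccnd3*) bind Cdk4 and Cdk6 in G1 phase and start the phosphorylation of the retinoblastoma protein, which releases E2F transcription factors. E-type cyclins (*Ccne1*, *Ccne2*) bind Cdk2 at entry into S phase, cyclin A2 binds Cdk2 and then Cdk1 through S and G2 phase, and cyclin B1 with Cdk1 drives mitosis. Mouse embryonic stem cells are known for a short G1 phase and for high activity of Cdk2 with cyclins E and A.

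Library totals lay between 3972152 and 8064166 counts, with 3972152 to 6673935 in the IP RPFs and 6313827 to 8064166 in the total RPFs. The 12 mESC markers, *Pou5f1* and *Nanog* among them, were all tested and summed to between 4920 and 5390 normalized CPM (counts scaled to the library size) in the total RPF libraries. *Rps27* was listed at 0 counts in all 15 libraries, so its counts give no check of the tagged line. *Rps27l* lay between 133 and 159 CPM in the total RPFs, which likewise gives no check of the tag. Of the total RPF libraries, 4 stood apart from the other 5 before any comparison of lines: those of batch 1 (5a1, 2b12, 4a2) and clone 4a3 of batch 2. In these libraries *Tet1*, which encodes a DNA demethylase, lay between 1.95 and 3.08 CPM, against 417 to 431 CPM in the other 5.

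Several of these genes are paralogs of each other, so the stretches where they come closest are shown first, because they bear on whether a fragment can be assigned to 1 gene. The windows are 28 nt long, about the length of a footprint, and come from the coding sequence (CDS) of the GENCODE M21 transcripts of GRCm38. Lower case marks a base shared with the first sequence of each set, and capitals mark a base that differs from it. For the D-type cyclins the window is the one where *Ccnd2* (CDS positions 173 to 200) comes closest to *Ccnd1* and *Ccnd3* (both 179 to 206) by the sum of mismatches.
Ccnd2: tggccacctggatgctagaggtctgtga
Ccnd1: tggccacctggatgctGgaggtctgtga
Ccnd3: tggcATActggatgctGgaggtGtgtga
For the kinases it is the one where *Cdk1* (487 to 514) comes closest to *Cdk2* (484 to 511) and *Cdk4* (520 to 547).
Cdk1: gaggtagtgacgctgtggtaccgatctc
Cdk2: gaggtGgtgacCctgtggtaccgaGcAc
Cdk4: gTggtGgtTacgctCtggtaccgaGctc
For the E-type cyclins it is the one where *Ccne1* (583 to 610) comes closest to *Ccne2* (580 to 607).
Ccne1: tttattgcttcaaaacttgaggaaatct
Ccne2: ttCattgcttcCaaacttgaggaaatct
*Ccnd2* and *Ccnd1* differ at 1 base of this window, and 5 of the 840 windows of *Ccnd2* come within 1 mismatch of *Ccnd1*. The longest run that *Ccnd2* shares with *Ccnd1* is 20 nt, and with *Ccnd3* it is 14 nt. Of the 858 windows of *Ccnd1*, 1 comes within 1 mismatch of *Ccnd3*. *Cdk1* differs from *Cdk2* at 4 bases and from *Cdk4* at 5 bases of the window shown, and *Ccne1* from *Ccne2* at 2 bases. No 28-nt window of the 10 CDSs occurs in another counted CDS.

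The transcripts covered a wide range of translation levels, from the mitotic pair at the top to *Ccne2* at the bottom. Levels of different genes were compared as normalized CPM per kb of counted CDS, taking the median of the 9 total RPF libraries. *Ccnb1*, the mitotic cyclin, was highest at 645 CPM per kb (614 to 676), followed by its kinase *Cdk1* at 536 (458 to 580). *Cdk4*, the G1 kinase, lay at 336 CPM per kb (301 to 360) and *Ccna2* at 283 (262 to 293). The ranges of these 4 transcripts do not overlap with the next one down.

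Further down the order, each range overlapped with its neighbour. *Ccne1* lay at 225 CPM per kb (182 to 252), *Ccnd3* at 162 (146 to 205), *Ccnd1* at 139 (86.1 to 231) and *Cdk2* at 100 (85.9 to 104). *Ccnd2* had a median of 41.6 CPM per kb but spanned 5.35 to 86.3, and *Ccne2* lay at 21.3 (19.0 to 26.1). By this measure *Ccnb1* was above 98.1% of the tested transcripts and *Ccne2* above 45.5%. Between the E-type cyclins, every library of *Ccne1* lay above every library of *Ccne2*.

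**Figure D1:**
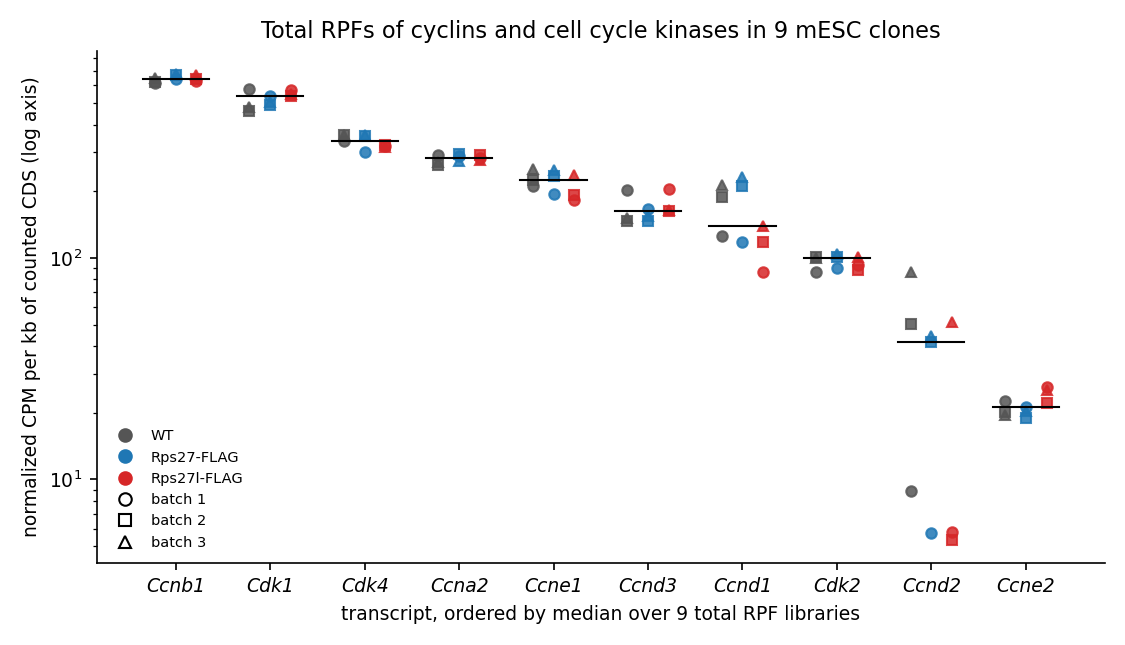
Normalized CPM per kb of counted CDS (log axis) of the 10 transcripts in the 9 total RPF libraries, with colour for the line, symbol for the batch and a bar at the median. *Ccnb1* is highest with a median of 645 and *Ccne2* lowest with 21.3, and *Ccnd2* is the transcript whose points spread over 5.35 to 86.3.

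The spread between the total RPF libraries also differed between transcripts. It includes counting error, which weighs more at low counts, so its order partly follows the level. *Ccnb1* had 5055 to 6433 counts in these libraries and *Ccne2* 142 to 231. The SD of log2 normalized CPM over the 9 total RPF libraries was 0.049 for *Ccnb1* and 0.055 for *Ccna2*, which places them at the 1.95th and 3.15th percentile of all tested transcripts. The kinases *Cdk4* (0.096), *Cdk2* (0.105) and *Cdk1* (0.118) and the cyclins *Ccne2* (0.159), *Ccne1* (0.174) and *Ccnd3* (0.18) followed, around or below the median of 0.163 over all tested. *Ccnd1* had an SD of 0.493, at the 96.3rd percentile. *Ccnd2*, chosen in part for this spread, had an SD of 1.647, rank 2 of 10085.

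*Ccnd2* lies on chromosome 6 (GRCm38, 127125162 to 127151060, minus strand), and its transcript has 5 exons and a CDS of 867 nt. Its total RPFs were 7.14, 40.4 and 69.6 CPM in WT replicates 1, 2 and 3, from 51, 304 and 466 counts. In *Rps27-FLAG* they were 4.60, 33.5 and 35.9 CPM, from 36, 236 and 218 counts. In *Rps27l-FLAG* they were 4.69, 4.32 and 41.3 CPM, from 36, 35 and 261 counts. The level was thus low in batch 1 in each of the lines, WT included, high in batch 3 in each of the lines, and in batch 2 low in clone 4a3 alone.

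The highest clone, 5a3, exceeded the lowest, 4a3, by 16.1-fold (95% interval 11.4 to 23.4, which covers counting error only). Each line holds clones at both levels, and the ranges of the lines overlap. Nothing is read from this about the tag, since *Ccnd2* was chosen in part for its spread. The low libraries are the 4 that stood apart by *Tet1*, and among the 5 others *Ccnd2* still ranged from 33.5 to 69.6 CPM. Batch 1 and the low level cannot be told apart in the WT and *Rps27-FLAG* lines, where batch 1 holds their low clone. In bulk libraries such as these, fewer cells that translate a transcript and fewer ribosomes on it per cell cannot be told apart.

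The IP RPFs, sequenced as separate libraries from the same lysates, gave the same clones as high and low. They were 3.47, 35.7 and 42.1 CPM in *Rps27-FLAG* and 6.55, 3.37 and 38.3 CPM in *Rps27l-FLAG*. Counts behind the low values were 24, 37 and 15. The log2 ratio of IP to total RPFs ranged from -0.40 in 2b12 to 0.48 in 4a2, both low clones, and from -0.10 to 0.23 in the other 3 tagged clones with high levels.

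*Ccnd1*, the D-type cyclin closest to *Ccnd2* in sequence, varied over a smaller range in the same direction. Its total RPFs were 103, 156 and 176 CPM in WT, 97.2, 173 and 190 CPM in *Rps27-FLAG* and 71.1, 97.2 and 115 CPM in *Rps27l-FLAG*. Batch 1 held the lowest clone of each line. *Ccnd3* ran the other way, with 165, 119 and 124 CPM in WT, 136, 120 and 127 CPM in *Rps27-FLAG* and 167, 132 and 135 CPM in *Rps27l-FLAG*. Here batch 1 held the highest clone of each line.

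The make-up of the D-type cyclins therefore differed between clones. *Ccnd2* contributed between 1.87% and 2.63% of the summed D-type RPFs per kb in 5a1, 2b12, 4a2 and 4a3, and between 10.3% and 19.2% in the other 5 total RPF libraries. The ratio of *Ccnd1* to *Ccnd3* per kb was 0.621, 1.29 and 1.41 in WT, 0.706, 1.42 and 1.48 in *Rps27-FLAG*, and 0.421, 0.726 and 0.842 in *Rps27l-FLAG*. *Ccnd3* was the more translated one in batch 1 of WT and *Rps27-FLAG* and in all 3 *Rps27l-FLAG* clones. The sum of the D-type cyclins ranged from 286 CPM per kb in 4a3 to 450 in 5a3.

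**Figure D2:**
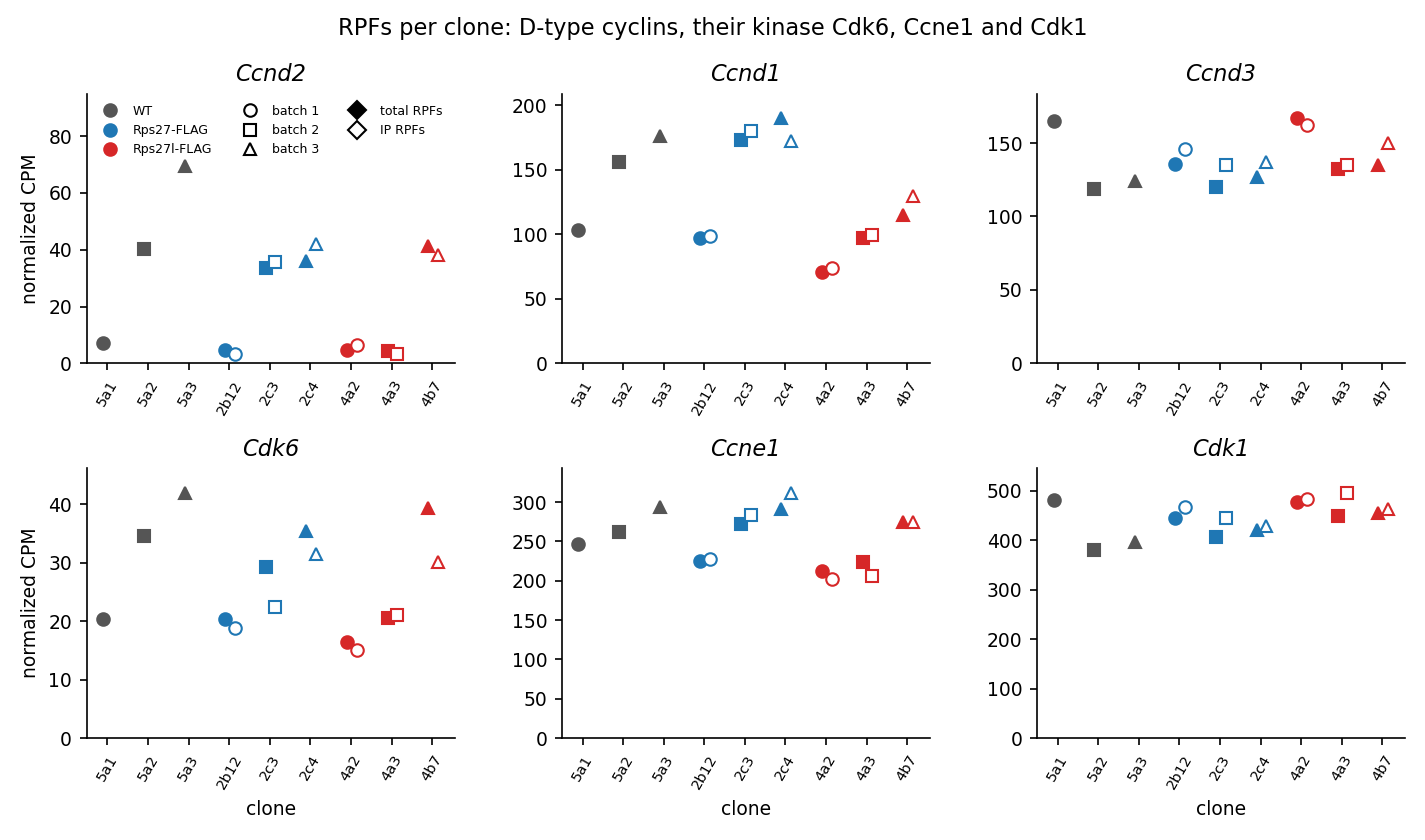
Normalized CPM (linear axes from 0) of *Ccnd2*, *Ccnd1*, *Ccnd3*, *Cdk6*, *Ccne1* and *Cdk1* in each clone, with filled symbols for total RPFs, open symbols for IP RPFs, colour for the line and symbol shape for the batch. *Ccnd2* lies at 7.14 CPM or below in 5a1, 2b12, 4a2 and 4a3 and at 33.5 CPM or above elsewhere, and the IP RPFs of each tagged clone lie near its total RPFs.

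Other cyclins and kinases differed between the same clones by smaller amounts. *Ccne1* was 247, 262 and 294 CPM in WT, 225, 272 and 291 CPM in *Rps27-FLAG*, and 212, 224 and 275 CPM in *Rps27l-FLAG*. Its 4 lowest values are those of the 4 clones low in *Ccnd2*. *Cdk1* was 482, 381 and 397 CPM in WT, 445, 407 and 421 CPM in *Rps27-FLAG*, and 477, 448 and 455 CPM in *Rps27l-FLAG*, with 5a1 and 4a2 at the top. *Cdk6*, the other kinase of the D-type cyclins and not among the 10, was 20.4, 34.6 and 42.0 CPM in WT, 20.4, 29.3 and 35.5 CPM in *Rps27-FLAG*, and 16.4, 20.5 and 39.4 CPM in *Rps27l-FLAG*. Its 4 lowest values too are those of the clones low in *Ccnd2*. The libraries also differed over all tested transcripts. The chi-square per degree of freedom was 9.84 between 5a1 and 5a2 and 2.54 between 5a2 and 5a3. The share of all tested transcripts that separate the same clones was not counted. The separation is therefore not read as a trait of cyclins and kinases or of the markers below.

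Likeness to *Ccnd2* was measured as Pearson's r of log2 normalized CPM over the 9 total RPF libraries. Because these libraries form separate clusters, r serves here only to order transcripts and carries no p. Among the 10, r was 0.941 for *Ccne1*, 0.892 for *Cdk2*, 0.858 for *Ccnd1*, 0.731 for *Cdk4* and 0.477 for *Ccnb1*. It was -0.483 for *Ccne2*, -0.663 for *Ccna2*, -0.688 for *Ccnd3* and -0.736 for *Cdk1*. Among the 1322 tested transcripts whose highest clone was at least 2 times the lowest, *Cdk6* ranked 10 with r = 0.963 and *Ccnd1* ranked 93.

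Among the transcripts most like *Ccnd2* by this measure were *Tet1* (r = 0.981), *Bcam* (0.978), *Cltb* (0.974) and *Celsr3* (0.970). *Bcam*, which encodes a cell adhesion molecule, lay between 88.8 and 111 CPM in the 4 clones low in *Ccnd2* and between 180 and 215 CPM in the other 5. The 5 that ran most against it were *Dcaf5* (-0.992), *Zfand3* (-0.992), *Pcdh1* (-0.987), *Sgpl1* (-0.979) and *Esx1* (-0.976). *Sgpl1*, which encodes sphingosine-1-phosphate lyase, lay between 266 and 318 CPM in the former and between 136 and 157 CPM in the latter.

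Some cell type markers moved with these levels, and their part in the result was not tested. *Pax6*, a neural transcription factor, lay between 0.781 and 1.92 CPM in the 4 clones low in *Ccnd2* and between 11.4 and 19.6 CPM in the others. *Eomes*, a transcription factor of early mesoderm, ran the other way, with 20.7 to 27.6 CPM against 6.82 to 9.01 CPM. Some mESC markers separated the same clones although the sum of their list did not. *Klf4* lay between 169 and 229 CPM in the 4 clones against 112 to 156 CPM, *Utf1* between 521 and 573 against 438 to 482, and *Sox2* between 313 and 332 against 288 to 306. *Tfcp2l1* ran the other way, with 206 to 217 CPM against 235 to 279 CPM. Over the total RPF libraries the 5 mesoderm markers summed to 12.8 to 36.4 CPM with 3 of them under 2 CPM throughout, and the 6 primitive endoderm markers summed to 5.45 to 26.6 CPM with 1 under 2 CPM throughout. The 5 fibroblast markers measured summed to 11 to 30.7 CPM with 3 of them under 2 CPM throughout, and *Thy1* alone lay between 5.76 and 22.3 CPM. The mesoderm and fibroblast sums thus rest largely on *Eomes* and *Thy1*. In each of these 3 lists the sums of 5a1, 2b12, 4a2 and 4a3 lay above those of the other 5 clones. The neural list of 4 markers summed to 136 to 166 CPM, the formative or primed epiblast list of 7 to 335 to 495 CPM, and the ranges of the same clones overlapped in both.

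Whether tagging either paralog altered translation was addressed by comparing total RPFs between the lines, with edgeR's quasi-likelihood test and the cell line as its term. No member passed an adjusted p of 0.05 in any of the 3 comparisons, as was true of all 10085 transcripts (0% called). Before adjustment, p was under 0.05 for 294 transcripts in *Rps27-FLAG* over WT, for 574 in *Rps27l-FLAG* over WT and for 580 in *Rps27l-FLAG* over *Rps27-FLAG*, of which 0, 1 and 2 were members. The comparisons share libraries, so their values are set side by side and are not independent. The median log2 fold change of the 10 was -0.01, 0.01 and -0.05 in this order, beside 0 for all tested in each.

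*Ccnd1* was the member for which the batch changed the call. Its total RPFs were lower in *Rps27l-FLAG* (94.3 ± 21.9 CPM, SD, n = 3) than in WT (145 ± 37.4) and *Rps27-FLAG* (153 ± 49.5), and the ranges of the lines overlap. The log2 fold change was -0.62 (SE 0.27) over WT and -0.70 (SE 0.27) over *Rps27-FLAG*, with adjusted p of 0.821 and 0.803 in edgeR. With the replicate number as a block, they were -0.61 (SE 0.073, adjusted p = 0.00358) and -0.68 (SE 0.073, adjusted p = 0.00133). That fit called 1.43% and 1.36% of all tested transcripts (1.06% and 0.714% as lower), and in both comparisons 1 of the 10 members. For *Rps27-FLAG* over WT it called 0 members and 0.00992% of all tested.

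Within batches the log2 ratio of *Ccnd1* in *Rps27l-FLAG* to WT was -0.54, -0.68 and -0.61, and to *Rps27-FLAG* it was -0.45, -0.83 and -0.73, so it was lower in 3 of 3 batches in both. A single direction in all 3 batches was found for 7 and 6 of the 10 members, *Ccnd1* among them, and for 34.8% and 35% of all tested transcripts. For *Rps27-FLAG* over WT it was found for 3 members and 31.2%. *Ccnd2*, chosen in part for its spread, is among the 7 and among the 3. These counts are therefore not read as a result about the members. Batch 2 sets clone 4a3, one of the libraries that stood apart, against clones that did not. Without 4a3 the blocked log2 fold change was -0.56 (adjusted p = 0.000984) over WT and -0.62 (adjusted p = 0.000839) over *Rps27-FLAG*. The IP RPFs of *Ccnd1* come from the same lysates and are not independent of its total RPFs. They were 98.6, 180 and 172 CPM in *Rps27-FLAG* and 74.0, 99.4 and 130 CPM in *Rps27l-FLAG*, in the same order of the tagged lines within each batch.

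*Ccne2*, the less translated E-type cyclin, had the highest positive log2 fold change of the 10 in both comparisons of *Rps27l-FLAG*. Its total RPFs were 26.0, 23.3 and 22.6 CPM in WT, 24.5, 21.9 and 23.4 CPM in *Rps27-FLAG* and 30.1, 25.5 and 29.1 CPM in *Rps27l-FLAG*. The *Rps27l-FLAG* libraries lay above those of *Rps27-FLAG* without overlap, as did, in either direction, 11.5% of all tested transcripts. The nearest libraries, 25.5 CPM in 4a3 and 24.5 CPM in 2b12, have overlapping 95% counting intervals (22.2 to 29.3 and 21.2 to 28.2). The log2 fold change was 0.28 (SE 0.11, adjusted p = 0.803 in edgeR) over *Rps27-FLAG* and 0.24 (SE 0.11, adjusted p = 0.821) over WT, and neither passed with the block (adjusted p of 0.232 and 0.324).

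For the remaining transcripts the log2 fold changes between lines were small. Leaving out *Ccnd1*, *Ccnd2* and *Ccne2*, the fitted values ran from *Ccnd3* at -0.09 to *Ccnb1* at 0.08 for *Rps27-FLAG* over WT, and from *Ccne1* at -0.18 to *Cdk1* at 0.13 for *Rps27l-FLAG* over WT. *Ccnd1* itself was at 0.08 (SE 0.26, adjusted p = 0.999) for *Rps27-FLAG* over WT, and this turned to -0.02 without 2c3, -0.10 without 2c4 and -0.11 without 5a1. The total RPFs of *Ccna2* were 331 ± 16.8 CPM in WT, 345 ± 11.7 in *Rps27-FLAG* and 343 ± 8.54 in *Rps27l-FLAG* (SD, n = 3 each). Those of *Cdk4* were 298 ± 11.1, 287 ± 27.3 and 272 ± 2.88 CPM. The *Rps27l-FLAG* libraries of *Cdk4* lay below those of WT without overlap, as did, in either direction, 9.65% of all tested transcripts, with a log2 fold change of -0.13 (SE 0.071, adjusted p = 0.821). The nearest libraries of *Cdk4*, 275 CPM in 4a3 and 285 CPM in 5a1, have overlapping 95% counting intervals (264 to 286 and 273 to 298). The *Rps27l-FLAG* libraries of *Cdk1* lay above those of *Rps27-FLAG* without overlap (0.12, SE 0.084, adjusted p = 0.809). In this comparison 11.5% of all tested transcripts did so in either direction. The nearest libraries of *Cdk1*, 448 CPM in 4a3 and 445 CPM in 2b12, have overlapping 95% counting intervals (434 to 463 and 431 to 460). Between *Rps27-FLAG* and WT no member had libraries without overlap, beside 8.52% of all tested.

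Which mRNAs Rps27- and Rps27l-ribosomes carry was addressed by comparing IP RPFs with total RPFs within each tagged line. *Ccnb1* and *Ccna2* had the highest log2 fold changes of the 10 in both lines, though the fit without a block called neither. *Ccnb1* total RPFs were 792, 825 and 832 CPM in *Rps27-FLAG*, against 868, 951 and 956 CPM in the IP RPFs. In *Rps27l-FLAG* they were 773, 793 and 823 CPM, against 849, 937 and 977 CPM. In each line the lowest IP library lay above the highest total library.

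*Ccna2* showed the same arrangement over a smaller range. Its total RPFs were 349, 354 and 332 CPM in *Rps27-FLAG* and its IP RPFs 381, 386 and 382 CPM. In *Rps27l-FLAG* the values were 342, 352 and 335 CPM against 372, 372 and 373 CPM. All 3 IP libraries above all 3 total libraries was found for 2 of the 10 members in each line, and for 11.4% of all tested transcripts in *Rps27-FLAG* and 9.22% in *Rps27l-FLAG*.

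Whether these differences were called depended on the block. With the fraction as the only term, 0 of 10 members were called in either line, while 5.67% of tested transcripts were called in *Rps27-FLAG* and 3.1% in *Rps27l-FLAG*, and 2 members had an unadjusted p under 0.05 in each line. *Ccnb1* had a log2 fold change of 0.18 (SE 0.061, adjusted p = 0.135 in edgeR) in *Rps27-FLAG*, and in *Rps27l-FLAG* it had 0.21 (SE 0.060, adjusted p = 0.112). *Ccna2* had 0.15 (SE 0.054, adjusted p = 0.156) and 0.12 (SE 0.047, adjusted p = 0.242). Without 2b12, one of the libraries that stood apart, both passed in *Rps27-FLAG* (2 members, 18% of tested transcripts). DESeq2, whose size factors were taken over IP and total libraries together, called *Ccnb1* in *Rps27l-FLAG* (adjusted p = 0.0464). The share of all transcripts that DESeq2 called in *Rps27l-FLAG* is not given here, so nothing is read from this call. In *Rps27-FLAG* it called 0 members and 584 transcripts (8.9% of those given an adjusted p). There *Ccnb1* had a log2 fold change of 0.21, against 0.18 in edgeR.

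With the clone as a block, the IP RPFs of *Rps27-FLAG* had 4 members higher and 0 lower, where 18.3% of all tested transcripts were called higher and 22.9% lower (41.2% in all). In *Rps27l-FLAG* 2 members were higher and 0 lower, beside 12% and 19% of all tested (31% in all). *Ccnb1* passed in both lines (edgeR adjusted p of 2.31e-08 and 6.63e-09), as did *Ccna2* (1.12e-05 and 0.00148). *Ccnd3* at 0.12 (adjusted p = 0.00773) and *Cdk1* at 0.08 (adjusted p = 0.032) passed in *Rps27-FLAG*. In *Rps27l-FLAG* the same transcripts had blocked log2 fold changes of 0.03 and 0.06 (adjusted p of 0.585 and 0.106). These sizes correspond to less than the SD of 0.25 and 0.22 that the log2 fold changes of all tested transcripts have in the lines.

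**Figure D3:**
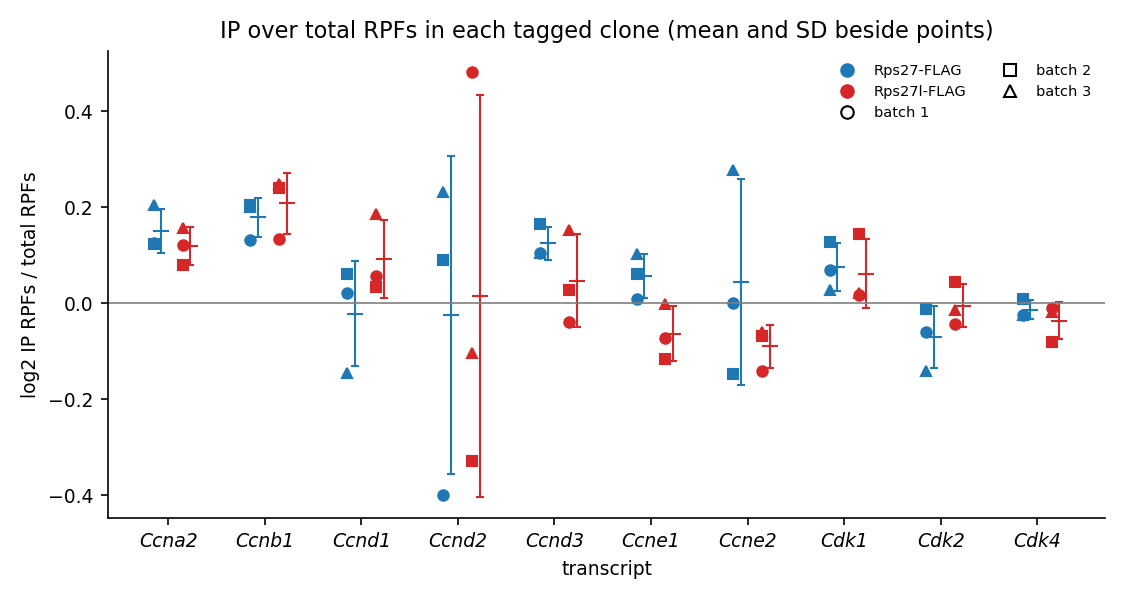
Log2 ratio of IP to total RPFs of the 10 transcripts in each of the 6 tagged clones, with colour for the line, symbol for the batch and bars for the mean ± SD of 3 clones. *Ccnb1* lies between 0.13 and 0.25 and *Ccna2* between 0.08 and 0.20 in every clone, and *Ccnd2* spreads from -0.40 to 0.48.

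Clone by clone, the log2 ratio of IP to total RPFs was above 0 in 6 of 6 tagged clones for *Ccna2*, *Ccnb1* and *Cdk1*, which 16.4% of all tested transcripts also were. For *Ccnb1* it was 0.13, 0.20 and 0.20 in *Rps27-FLAG* and 0.13, 0.24 and 0.25 in *Rps27l-FLAG*. *Ccna2* ran from 0.08 to 0.20, and *Cdk1*, the kinase of both cyclins, from 0.02 to 0.14. In 2c4, 4a2 and 4b7 *Cdk1* was at 0.03, 0.02 and 0.02, with overlapping counting intervals of IP and total RPFs. Its sign is therefore not read in these clones. *Ccnd3* was above 0 in 5 of 6 clones (-0.04 to 0.17), as was *Ccnd1* (-0.14 to 0.19).

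*Cdk4* and *Cdk2* lay close to 0. *Cdk4* was above 0 in 1 of 6 clones (-0.08 to 0.01) and *Cdk2* also in 1 of 6 (-0.14 to 0.04). In *Rps27l-FLAG* the IP libraries of *Cdk4* (269, 260 and 266 CPM) lay narrowly below its total libraries (271, 275 and 269 CPM). The share of all tested transcripts arranged in this direction was not counted. In *Rps27-FLAG* *Ccne1* had a mean of 0.06 ± 0.046, and -0.06 ± 0.057 in *Rps27l-FLAG* (SD, n = 3), and *Ccne2* 0.04 ± 0.22 and -0.09 ± 0.044. Over the 10 the median log2 fold change was 0.07 and 0.02 in these lines, beside -0.01 and -0.03 for all tested.

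Across the tested transcripts with a known length, the log2 fold change of IP over total RPFs was lower for longer CDSs, with Spearman's rho of -0.562 (*Rps27-FLAG*) and -0.527 (*Rps27l-FLAG*) over 10082 transcripts, which share their libraries and are not independent replicates. The 10 members have CDSs of 867 to 1290 nt. With the clone as a block and the trend with CDS length removed from each library, *Ccnb1* had log2 fold changes of 0.21 (*Rps27-FLAG*) and 0.25 (*Rps27l-FLAG*, edgeR adjusted p of 1.04e-09 and 1.12e-09), and *Ccna2* had 0.17 and 0.16 (4.95e-07 and 5.57e-05). This fit called 31.1% and 22.2% of 10082 transcripts, and 2 members in each line. With the length trend removed and no block 0 members were called, with adjusted p of 0.28 and 0.16 for *Ccnb1*. That fit called 0.278% of 10082 transcripts in *Rps27-FLAG*, and its share in *Rps27l-FLAG* is not given here. The count of 0 is therefore not read as a result about the members. With the block and the trend removed, *Ccnd3* and *Cdk1* in *Rps27-FLAG* were at 0.07 and 0.02 and no longer passed (0.235 and 0.676).

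**Figure D4:**
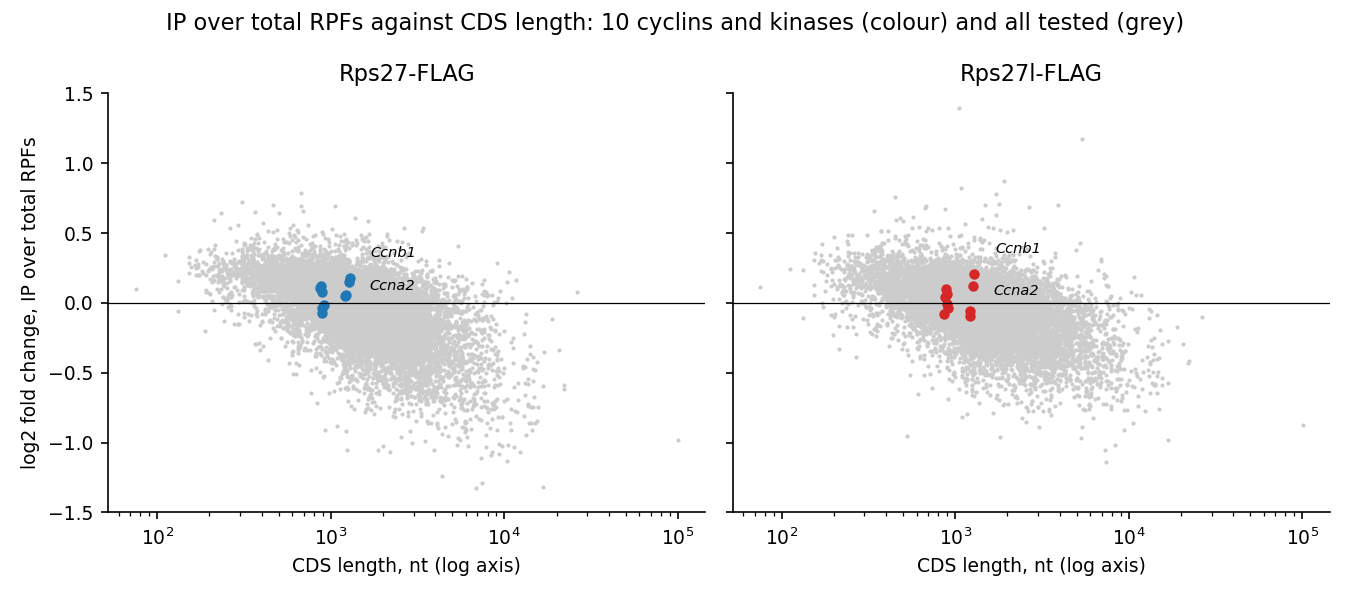
Log2 fold change of IP over total RPFs against CDS length in nt (log axis) for all tested transcripts in grey and the 10 members in colour, in *Rps27-FLAG* (left) and *Rps27l-FLAG* (right), with 2 transcripts outside the plotted range. *Ccnb1*, at 1290 nt, is the highest of the members in both lines with 0.18 and 0.21.

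Whether the IP effect differed between the tagged lines was tested with each clone fitted within its line and the fraction fitted per line. Of the 10 members 0 differed, beside 1.5% of all tested transcripts, and 1 had an unadjusted p under 0.05. That was *Ccne1*, with a difference (*Rps27l-FLAG* minus *Rps27-FLAG*) of -0.12 (SE 0.047, adjusted p = 0.233 in edgeR). Leaving out *Ccnd2*, the other differences ran from -0.14 for *Ccne2* (SE 0.14) to 0.11 for *Ccnd1* (SE 0.064). For *Ccnb1* the difference was 0.03 (SE 0.039) and for *Ccna2* it was -0.03 (SE 0.042).

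Of 78 other genes of cell cycle control, 70 were tested, and those that passed without the block were lower in the IP RPFs. In *Rps27-FLAG* 0 were higher and 3 lower, beside 0.327% and 5.34% of all tested transcripts, and these 3 have long CDSs. *Ambra1*, a ubiquitin ligase subunit that targets D-type cyclins, had 100, 82.4 and 86.9 CPM in the total RPFs and 60.6, 53.7 and 54.1 CPM in the IP RPFs (log2 fold change -0.68, SE 0.097, adjusted p = 0.00693). *Mastl*, a mitotic kinase, was at -0.39 (SE 0.066, adjusted p = 0.0139), and *Ccnf*, the cyclin that serves as a ubiquitin ligase subunit, at -0.37 (SE 0.057, adjusted p = 0.00928). The CDSs of these genes are 3900, 2595 and 2331 nt long. With the CDS length trend removed and no block, the fit called 0.278% of 10082 transcripts and none of these 3. *Ambra1* was at -0.42 (adjusted p = 0.0807), *Mastl* at -0.24 (0.207) and *Ccnf* at -0.24 (0.152). With the block as well these values passed (1.57e-12, 7.92e-05 and 6.86e-13). The calls were also lost without 2c3 (adjusted p of 0.144, 0.316 and 0.227 in this order) and without 2c4 (0.184, 0.205 and 0.205). Without 2c3 the log2 fold changes were -0.7, -0.38 and -0.39. That fit called 0% of all 10085 transcripts, so the loss is not particular to these genes. The share without 2c4 is not given here.

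In *Rps27l-FLAG* 0 were higher and 2 lower, beside 0.833% and 2.27% of all tested. *Ccnf* had 366, 363 and 392 CPM in the total RPFs and 302, 297 and 315 CPM in the IP RPFs (log2 fold change -0.29, SE 0.054, adjusted p = 0.0277). *Cdk13*, a transcriptional kinase with a CDS of 4533 nt, was at -0.37 (SE 0.078, adjusted p = 0.047), and with the length trend removed at -0.13 (adjusted p = 0.598), where *Ccnf* was at -0.18 (adjusted p = 0.308, and 1.33e-05 with the block as well). Without 4a2 or 4a3 neither passed (*Ccnf* 0.239 and 0.402, *Cdk13* 0.224 and 0.475), and without 4b7 *Cdk13* did not (0.0755). The shares of all tested transcripts called in these fits are not given here. The losses are therefore not read as particular to these genes. The block raised the counts of these pathway genes to 9 higher and 23 lower for *Rps27-FLAG* and to 8 higher and 19 lower for *Rps27l-FLAG*. That fit called 18.3% of all tested transcripts higher and 22.9% lower in the former, and 12% and 19% in the latter.

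By role, the blocked fit, which called 41.2% (*Rps27-FLAG*) and 31% (*Rps27l-FLAG*) of all tested transcripts, gave the following counts. Of the 9 ubiquitin ligase subunits that act on cyclins and their inhibitors (median CDS 1497 nt), 2 were higher and 6 lower in each line. Of the 18 transcriptional and other cyclins and kinases tested (median CDS 1521 nt), 0 were higher in both lines, and 7 were lower in *Rps27-FLAG* and 6 in *Rps27l-FLAG*. Of the 12 Rb and E2F proteins tested (median CDS 1260 nt), 0 were higher and 3 lower in each line. The 5 subunits of the CDK-activating kinase and Cks group, with a median CDS of 927 nt, had 2 higher in *Rps27-FLAG* and 3 in *Rps27l-FLAG* and 0 lower. Of the 6 CDK inhibitors tested (median CDS 549 nt), 2 were higher in *Rps27-FLAG* and 0 in *Rps27l-FLAG*.

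Among the 8 mitotic kinases (median CDS 2149.5 nt) the blocked fit called 1 higher and 3 lower in *Rps27-FLAG*, and 2 higher and 2 lower in *Rps27l-FLAG*. The 5 Cdc25 phosphatases and Wee1 kinases (median CDS 1542 nt) had 1 higher and 1 lower in *Rps27-FLAG* and 0 of either in *Rps27l-FLAG*. The 7 other cell cycle cyclins and kinases tested (median CDS 1056 nt), *Cdk6* among them (blocked log2 fold change -0.23 with adjusted p = 0.0416, and -0.18 with 0.192), had 1 higher and 3 lower, and 1 higher and 2 lower. Between the IP effects of the lines 0 of the 70 differed, beside 1.5% of all tested. In the total RPFs 0 of 70 passed between any lines without the block, beside 0% of all tested. With the block 1 of the 70 passed for *Rps27l-FLAG* over WT, near the 1.43% of all tested (1.06% as lower). It was *Ccnt2*, a cyclin of transcription elongation, which was lower in *Rps27l-FLAG* (log2 fold change -0.36, adjusted p = 0.0243 in edgeR).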

How the data were processed

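The values are the authors' deposited counts of RPFs per transcript, without normalization. Per the labels and methods, reads were trimmed with cutadapt 2.4, deduplicated by molecular identifier with UMI-tools 1.0.1 and aligned uniquely to GRCm38 transcripts with Bowtie2 2.3.4.3, and A sites were counted within the CDS, the first 15 and last 5 codons excepted. The fragments therefore bear on coding sequence only, and the intervals given cover counting error only. All 15 columns of the table were used. Of the 21727 transcripts 21723 have an entry in GENCODE M21, which gave names, positions and CDS lengths.

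Mitochondrially encoded transcripts (13) were left out, CPM over 2 in at least 14 libraries was required, and TMM was run on IP and on total libraries. In R 4.3.3, edgeR 4.0.16 tested the counts of 10085 transcripts by quasi-likelihood, with Benjamini-Hochberg adjustment and a threshold of 0.05. Terms followed the study's methods, which used voom. Normalized CPM are counts over TMM-scaled library sizes, and 0.5 counts were added before log2 ratios. IP and total libraries of a replicate come from 1 clone and replicates were pooled by number, so the numbers pair the samples. As a check, IP and total residuals of a clone correlated with r of 0.468 to 0.79, and total residuals within a number with a median r of 0.443 (-0.164 to 0.713). Libraries of 1 group differed beyond sampling noise.

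Named were the 10 members, other pathway genes past the threshold (at most 3 per direction) and the 5 transcripts most like and most unlike *Ccnd2*. One transcript that this rule picks is left out. Members and lists were chosen with earlier results of these data known, and the tests were tried on simulated data. Alternatives were DESeq2 1.42.0, voom with limma 3.58.1, DESeq2's size factors, no filter, the replicate block, a CDS length correction (loess, span 0.5) and leaving out each clone, the last also with the block, which was chosen after seeing the data. Figures used Python 3.11.15 and matplotlib 3.10.9.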

Additional observations from a re-analysis of the deposited data

How the results depend on the processing

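Precision was limited by 3 clones per line and, for *Ccnd2*, by 15 to 51 counts in its low libraries. The replicate block moved most counts of members past the threshold. With it, 1 member (*Ccnd1*) passed for *Rps27l-FLAG* over WT and 1 for *Rps27l-FLAG* over *Rps27-FLAG*, against 0 without it. For IP over total RPFs it gave 4 in *Rps27-FLAG* and 2 in *Rps27l-FLAG*. With the CDS length trend removed as well it gave 2 and 2 (*Ccna2*, *Ccnb1*), where 31.1% and 22.2% of all tested transcripts passed. The length correction without the block gave 0 and 0, and in *Rps27-FLAG* it called 0.278% of 10082 transcripts. Its share in *Rps27l-FLAG* is not given here. DESeq2, with size factors taken over both fractions together, called 1 (*Ccnb1*) in *Rps27l-FLAG*, and 0 in *Rps27-FLAG*, where it called 8.9% of transcripts. Its share in *Rps27l-FLAG* is not given here, so nothing is read from that call. Leaving out 1 clone at a time gave 0 to 2 members in the IP comparison of *Rps27-FLAG* and 0 to 0 in the other comparisons. The 2 (*Ccna2*, *Ccnb1*) passed without replicate 1 of that line, where 18% of tested transcripts were called. Without replicate 2 of that line 0 members and 0% of tested transcripts were called. In the blocked fits, chosen after seeing the data, leaving out 1 clone gave 1 to 2 for *Rps27l-FLAG* over WT (2 without *Rps27l-FLAG* replicate 3, the added one being *Ccnd2*, chosen for its spread and left without its high clone of that line, so that nothing is read from it), 1 to 1 for *Rps27l-FLAG* over *Rps27-FLAG*, 2 to 4 for the IP of *Rps27-FLAG* (2 without replicate 2, which lost *Ccnd3* and *Cdk1*) and 1 to 2 for the IP of *Rps27l-FLAG* (1 without replicate 3, which lost *Ccna2*). These blocked fits called 0.228% to 2.67% of all tested transcripts for *Rps27l-FLAG* over WT. They called 0.0992% to 3.86% for *Rps27l-FLAG* over *Rps27-FLAG*. For the IP of *Rps27-FLAG* they called 33.5% without replicate 1 and 32.8% without replicate 2, so 2 to 4 of 10 members lie near that share. For the IP of *Rps27l-FLAG* the shares with a clone left out are not given here. With all clones that blocked fit called 31%, so its 1 to 2 members are not read as a result. The log2 fold change of *Ccnd1* for *Rps27-FLAG* over WT, 0.08 and not called, turned to -0.02 without *Rps27-FLAG* replicate 2, -0.10 without replicate 3 and -0.11 without WT replicate 1, in a range of -0.11 to 0.33 over the clones left out. The cause was not tested. The other 66 values of member counts and of the *Ccnd2* ratio under alternatives kept their side or lay within 1.5 times, voom with limma, no filter and DESeq2's size factors included.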
